A study of Homo sapiens with 9 samples.

Results

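The collagen genes of A549 cells, 39 of the 56252 features listed, were followed in Cyclin K depleted cells. They were taken by symbol alone, as every feature with a gene symbol made of COL, a number, A and a number. No measured value enters this rule, but the family was chosen with earlier results of these data known. A549, an established human lung adenocarcinoma cell line, was transfected with scrambled siRNA, siCyclin K#1 or siCyclin K#2 at 50 nM for 48 h, and total RNA of 3 libraries per group (9 in all) was sequenced. All 3 groups were thus transfected, and a group without siRNA was not analysed here. The labels speak of independent samples without naming separate cultures, and p-values then measure the spread between these samples, which may be technical. The study asked through which genes Cyclin K acts in lung cancer cells, and the question taken here is how the collagen genes differed between the groups.

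Collagens are secreted or membrane-bound proteins in which alpha chains, each from its own gene, wind into a triple helix rich in glycine and proline. Fibrillar collagens form the fibrils of connective tissue, type IV collagen forms the sheet-like network of basement membranes on which epithelial cells sit, type VI forms beaded filaments, and type VII anchors the basement membrane to the tissue beneath. Chains of a type are usually made in fixed combinations, such as the heterotrimer of COL4A1 and COL4A2, and are hydroxylated, folded and crosslinked by dedicated enzymes. Cyclin K is the partner of CDK12 and CDK13, kinases that act on RNA polymerase II during elongation.

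Several type IV chains are encoded by neighbouring genes that start close together and run in opposite directions. By RefSeq starts on GRCh38.p14, 126 bases lie between COL4A1 and COL4A2, 418 between COL4A4 and COL4A3, and 379 or 1415, depending on the COL4A6 start, between COL4A6 and COL4A5. The interval shared by COL4A1 and COL4A2 and the 250 bases before the starts of COL4A5 and COL4A6 are shown because chains from the same stretch of DNA are compared below, that of COL7A1 because it was the most abundant collagen outside type IV, and that of COL5A3 because its transcript was listed at 0 in the scrambled libraries. All are RefSeq sequences, written 5′ to 3′. Capitals mark, on either strand, the CCAAT box (letters CCAAT), the GC box (letters GGGCGG) and the TATA box (letters TATAAA).

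COL4A1 to COL4A2 interval, chr13:110307158-110307283, plus strand: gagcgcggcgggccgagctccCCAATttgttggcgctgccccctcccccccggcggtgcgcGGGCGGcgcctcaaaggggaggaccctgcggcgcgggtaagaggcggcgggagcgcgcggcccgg
Before COL4A5, chrX:108439588-108439837, plus strand: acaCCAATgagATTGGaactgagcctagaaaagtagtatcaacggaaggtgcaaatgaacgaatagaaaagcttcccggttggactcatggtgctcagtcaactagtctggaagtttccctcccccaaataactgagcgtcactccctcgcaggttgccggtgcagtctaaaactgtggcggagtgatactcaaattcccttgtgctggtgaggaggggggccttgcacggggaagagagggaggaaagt
Before COL4A6, chrX:108439459-108439708, minus strand: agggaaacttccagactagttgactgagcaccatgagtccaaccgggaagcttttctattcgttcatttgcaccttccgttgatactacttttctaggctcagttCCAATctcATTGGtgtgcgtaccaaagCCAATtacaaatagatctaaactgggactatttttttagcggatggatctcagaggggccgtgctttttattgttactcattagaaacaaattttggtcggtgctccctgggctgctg
Before COL7A1, chr3:48595330-48595579, minus strand: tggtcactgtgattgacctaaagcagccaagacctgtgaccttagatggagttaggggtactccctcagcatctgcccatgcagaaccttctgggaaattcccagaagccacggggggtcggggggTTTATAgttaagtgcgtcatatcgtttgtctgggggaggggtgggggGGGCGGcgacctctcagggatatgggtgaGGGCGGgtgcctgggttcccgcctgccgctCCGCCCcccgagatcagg
Before COL5A3, chr19:10010505-10010754, minus strand: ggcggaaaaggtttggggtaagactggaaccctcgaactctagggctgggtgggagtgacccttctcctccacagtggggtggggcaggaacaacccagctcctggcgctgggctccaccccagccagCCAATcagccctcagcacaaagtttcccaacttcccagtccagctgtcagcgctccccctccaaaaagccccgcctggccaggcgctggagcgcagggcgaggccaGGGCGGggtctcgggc

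The shared interval of COL4A1 and COL4A2 held 1 CCAAT and 1 GGGCGG, the stretch before COL7A1 held 3 GGGCGG and 1 TATAAA, and that before COL5A3 held 1 CCAAT and 1 GGGCGG. The stretches before COL4A5 and COL4A6 overlap on opposite strands, with 2 and 3 CCAAT. For scale, the CCAAT box was present on either strand in 34.6%, the GC box in 45% and the TATA box in 11.5% of 35116 RefSeq promoter windows, which are 300 bases long, with 250 before the start and 50 after, and so are longer than the stretches shown. A match describes the letters only, and binding was not measured. A RefSeq promoter was matched for 20 of the 25 genes tested below, and none for COL1A1, COL5A2, COL6A1, COL8A1 and COL9A3.

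Values are FPKM, fragments scaled to gene length and library depth, so levels of genes and libraries are set side by side relative to the RNA sequenced in each library. RNA per cell was not measured. Depth recovered from the steps of low values was 31335920 to 33762040 reads per library, with overlapping ranges in the 3 groups. CCNK, the target of both siRNAs, averaged 7.02 ± 0.107 FPKM (SD, n = 3) in scrambled libraries. It was at 0.809 ± 0.0857 and 0.844 ± 0.0661 FPKM after siCyclin K#1 and siCyclin K#2, or 11.5% and 12% of the scrambled mean. The epithelial keratins KRT8 and KRT18 each averaged 82.5 FPKM, whereas KRT19 and EPCAM, also on the list of 5 epithelial markers, stayed at 0.0251 and 0.0933. In the limma fit described below, KRT8 rose after siCyclin K#1 and siCyclin K#2 (log2 fold change 0.78 and 0.83, adjusted p = 0.00078 and 0.00081). KRT18 was lower after siCyclin K#1 (-0.17, adjusted p = 0.0091). CDH1 rose after siCyclin K#1 (1.17, adjusted p = 0.0043) and was not called after siCyclin K#2 (0.02, adjusted p = 0.96). Of 6 fibroblast markers, FAP, THY1 and DCN averaged 0.0386 FPKM or less and PDGFRA averaged 4.13 FPKM. By limma, PDGFRA rose after siCyclin K#1 and siCyclin K#2 (log2 fold change 0.39 and 0.26, adjusted p = 0.0009 and 0.012). PDGFRB was not called with either (0.19 and -0.06, adjusted p = 0.6 and 0.89). LUM, which encodes the fibril-binding proteoglycan lumican, rose from 0.356 ± 0.0521 FPKM to 2.28 ± 0.587 after siCyclin K#1 (SD, n = 3; log2 fold change 2.36, adjusted p = 1.8e-05) and was at 0.318 ± 0.0206 after siCyclin K#2. Summed over the list, fibroblast markers ranged from 3.87 to 4.29 FPKM in scrambled libraries, 6.3 to 7.7 after siCyclin K#1 and 4.53 to 4.79 after siCyclin K#2, and the epithelial list from 132 to 152, 160 to 187 and 186 to 193. The part of these markers in the collagen results was not tested, and in bulk RNA fewer cells of a type and less RNA per cell cannot be told apart.

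Collagen transcripts were mostly higher in Cyclin K depleted A549 cells. Of the 39 genes, 25 reached 0.1 FPKM in at least 3 libraries and were tested, with limma on log2(FPKM + 0.1) over 21048 genes and Benjamini-Hochberg adjustment; this scale understates fold changes of low genes. After siCyclin K#1, 17 were higher and 2 lower at an adjusted p under 0.05, where 26.8% of all tested genes were higher and 18.1% lower. After siCyclin K#2, 14 were higher and 0 lower, against a background of 19.8% higher and 15.2% lower. With both siRNAs as 1 group, 11 were higher and 0 lower, against 17.0% and 11.5%. Without scrambled replicate 1, or without scrambled replicate 3, the count for both siRNAs was 7, with COL4A4, COL4A5, COL5A2 and COL15A1 no longer called. It was 18 when the siRNAs kept separate means in the fit. Shares of all tested genes were not computed for these alternatives, so the 7 and the 18 are a description only. Neither limma count of 0 changed at an unadjusted p under 0.05 or with limma-voom on recovered reads, but quantile normalization made each 1, with COL27A1 lower by limma with both (-0.35, adjusted p = 0.028) and after siCyclin K#2 (-0.31, adjusted p = 0.043). The median log2 fold change of the 25 genes was 0.69 after siCyclin K#1, 0.56 after siCyclin K#2 and 0.65 with both, and that of all tested genes was 0.10, 0.01 and 0.06. COL5A3 and COL9A3 were listed at 0 in all scrambled libraries, and setting them to their mean over the floor of 3 reads described below left these medians at 0.69 after siCyclin K#1 and 0.65 with both and moved that after siCyclin K#2 to 0.61.

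Of the 25 tested genes, 5 (COL11A2, COL5A3, COL4A4, COL4A3 and COL9A3) stayed under 0.1 FPKM in all scrambled libraries and passed the filter only through siCyclin K libraries. The medians above include these 5 genes and were not recomputed without them. No support is drawn from their calls or from those medians. The 14 genes with a mean of at least 1 FPKM did not enter in this way. Of these, 11 were higher and 1 lower after siCyclin K#1, where 36.5% and 27.8% of all genes at that level were higher and lower. After siCyclin K#2, 11 were higher and 0 lower, against 31.1% and 22.4%. With both siRNAs together, 8 were higher and 0 lower, against 25.2% and 16.9%. By gene, 12 of the 25 were higher with each siRNA, 5 (COL4A2, COL4A4, COL6A3, COL9A3 and COL12A1) were called higher only after siCyclin K#1, COL17A1 was lower only after siCyclin K#1, COL18A1 higher only after siCyclin K#2, COL13A1 moved in opposite directions and 5 were called in no comparison. COL5A3 and COL11A2 among the 12, and COL4A4 and COL9A3 among those higher only after siCyclin K#1, had entered through siCyclin K libraries. Shares of all tested genes with these patterns were not computed, so the counts by gene are a description only. The 3 scrambled libraries serve both comparisons, and these counts are therefore not independent of each other. At the stricter thresholds given in the study's methods, a fold change over 3 with an unadjusted p under 0.01, the calls were COL1A1, COL4A1 and COL5A2 after siCyclin K#1 (background 4.67%) and COL5A1 after siCyclin K#2 (1.94%). COL11A2 and COL5A3 after siCyclin K#1 and COL11A2 with both (2.29%) also passed, but belong to the 5 genes that entered through siCyclin K libraries.

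**Figure D1:**
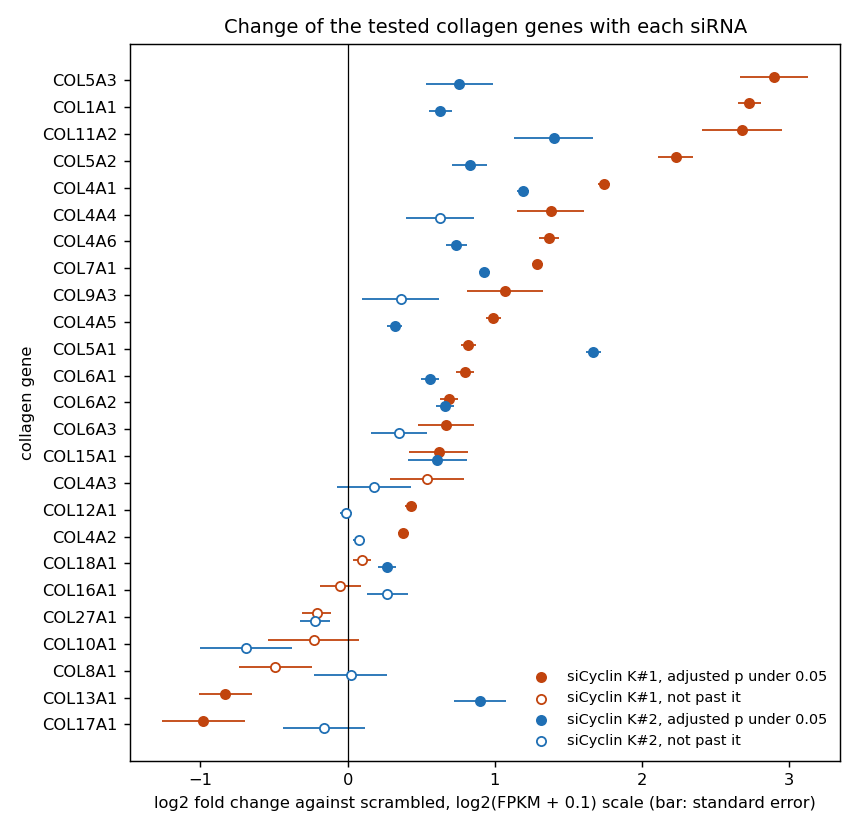
Log2 fold change (log2(FPKM + 0.1) scale) of the 25 tested collagen genes against scrambled siRNA, in orange for siCyclin K#1 and blue for siCyclin K#2, with bars of 1 standard error and filled points for an adjusted p under 0.05. Most points lie right of 0, from COL5A3 at 2.90 after siCyclin K#1 down to COL17A1 at -0.98, and COL5A1 and COL13A1 are higher after siCyclin K#2 than after siCyclin K#1. COL5A3 entered the test only through siCyclin K libraries.

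In scrambled cells the order of levels was led by COL4A2 at 81 FPKM, COL4A1 at 38.5 and COL7A1 at 22.8, with no overlap between these 3. COL12A1 (12.5), COL6A1 (11.9), COL5A2 (10.4) and COL18A1 (10.4) followed, and within this group COL12A1 overlapped COL6A1, and COL5A2 overlapped COL18A1. COL6A2 (7.48), COL4A5 (5.15), COL5A1 (4), COL27A1 (2.95), COL4A6 (2.35), COL1A1 (2.03) and COL13A1 (1.03) completed the genes with a mean of at least 1 FPKM. Chains of the basement membrane and its anchoring fibrils thus stood at the top, and COL1A1, the main chain of bone and skin collagen, was near its end. After siCyclin K#1 COL4A1 stood above COL4A2 in every library, and COL5A2, at 41.7 to 54.8 FPKM, came close to COL7A1, at 54.5 to 56.9 FPKM, but was below it in every library.

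**Figure D2:**
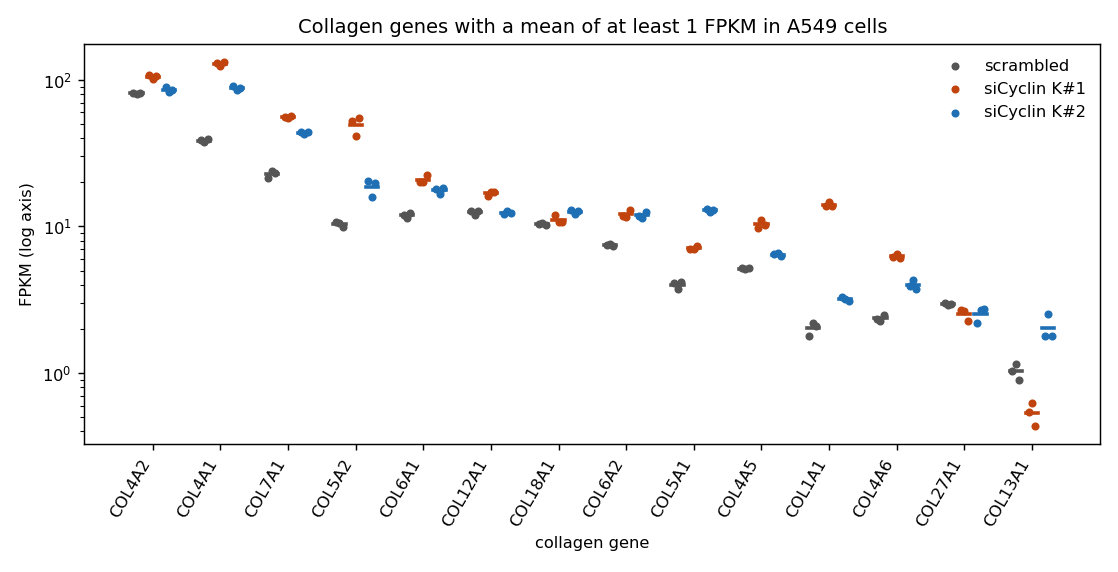
FPKM (log axis) of the 14 collagen genes with a mean of at least 1 FPKM, with 1 point per library, a line at the mean of 3 libraries, and scrambled in grey, siCyclin K#1 in orange and siCyclin K#2 in blue. COL4A1 climbs from 38.5 to 129 and 88 FPKM, whereas COL12A1 and COL18A1 stay within 10.2 to 17.3 FPKM in all 9 libraries.

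Among the network-forming chains, COL4A1 had the clearest rise. COL4A1 (ENSG00000187498, minus strand of chromosome 13, 110148963 to 110307149 of GRCh38) was at 38.8, 37.6 and 39.2 FPKM in the scrambled libraries, 130, 124 and 132 after siCyclin K#1, and 91.4, 85 and 87.6 after siCyclin K#2. The 3 groups did not overlap. On the log2 scale it rose by 1.74 (standard error, SE, 0.04; adjusted p = 1.6e-08) after siCyclin K#1 and 1.19 (SE 0.04, adjusted p = 1.8e-07) after siCyclin K#2. COL4A2 (ENSG00000134871, plus strand of chromosome 13, 110305812 to 110513027), the partner in the same heterotrimer, was at 80.7, 80.6 and 81.6 FPKM in scrambled libraries, 108, 101 and 106 after siCyclin K#1 and 89.4, 82.3 and 85.3 after siCyclin K#2. Its rise after siCyclin K#1 was small, at a log2 fold change of 0.38 (SE 0.04, adjusted p = 4.6e-05). After siCyclin K#2 all libraries were above the scrambled ones, but the log2 fold change of 0.08 (95% interval -0.01 to 0.16, adjusted p = 0.14) did not pass the test.

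COL4A5 and COL4A6, whose products form the other type IV network of several epithelial basement membranes, lie head to head on chromosome X. COL4A5 (ENSG00000188153, plus strand, 108439844 to 108697545) was at 5.18, 5.09 and 5.18 FPKM with scrambled siRNA, 9.82, 11 and 10.3 after siCyclin K#1 and 6.45, 6.55 and 6.31 after siCyclin K#2. COL4A6 (ENSG00000197565, minus strand, 108155607 to 108439497) was at 2.33, 2.27 and 2.47, then 6.16, 6.48 and 6.09, then 3.91, 4.31 and 3.76 FPKM in the same order. Both genes kept the groups apart, after siCyclin K#1 highest and siCyclin K#2 between. The log2 fold change of COL4A6 was 1.37 (SE 0.07, adjusted p = 7.8e-07) after siCyclin K#1 and 0.74 (0.07, 5.3e-05) after siCyclin K#2, and that of COL4A5 was 0.99 (0.05, 8.7e-07) and 0.32 (0.05, 0.0013). COL4A5, COL7A1 and COL27A1 were listed under loci assembled by StringTie and could not be resolved to whole reads, and whether the assembled transcripts enter their FPKM and the ratios built on them was not tested.

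The balance between partner chains moved with them. FPKM is scaled to length, so the ratio of a pair within a library compares their levels. COL4A1/COL4A2 was 0.481, 0.466 and 0.48 in scrambled libraries, 1.21, 1.23 and 1.24 after siCyclin K#1, and 1.02, 1.03 and 1.03 after siCyclin K#2. COL4A2 thus had the higher FPKM of the pair in every scrambled library and COL4A1 in every siCyclin K library. After siCyclin K#2, at 1.02 to 1.03, the values were nearly equal and do not settle which transcript was more abundant. COL4A5/COL4A6 was 2.1 to 2.24 with scrambled siRNA and lower after siCyclin K#1 (1.6 to 1.69) and siCyclin K#2 (1.52 to 1.68), which overlapped each other. Since an exact two-sided permutation test of 3 against 3 libraries cannot give a p below 0.1, the ratios are described by their ranges. COL4A1 and COL4A2 overlap in the annotation at their 5′ ends, and whether the libraries kept strand is not given in the sources used here, so reads from the shared stretch cannot be told apart.

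**Figure D3:**
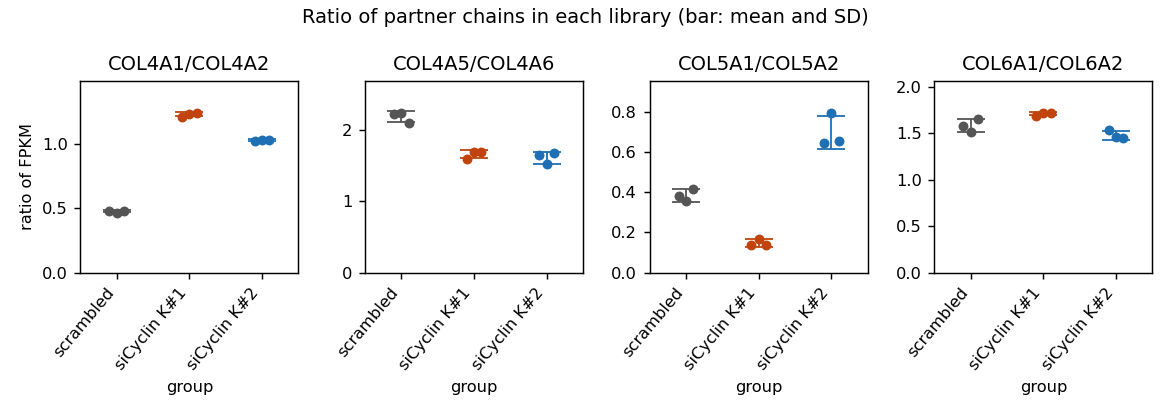
Ratio of the FPKM of partner chains in each library (points), with a bar for the mean and SD of 3 libraries. COL4A1/COL4A2 goes from 0.476 with scrambled siRNA to 1.23 and 1.03, COL5A1/COL5A2 moves from 0.384 down to 0.146 after siCyclin K#1 and up to 0.698 after siCyclin K#2, and COL6A1/COL6A2 stays between 1.45 and 1.72.

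COL7A1, whose product forms the anchoring fibrils of epithelia, rose with each siRNA. COL7A1 (ENSG00000114270, minus strand of chromosome 3, 48564073 to 48595267) was at 21.3, 23.8 and 23.2 FPKM in scrambled libraries, 55.8, 54.5 and 56.9 after siCyclin K#1, and 43.9, 42.4 and 43.8 after siCyclin K#2. No group overlapped another. The log2 fold change was 1.29 (SE 0.04, adjusted p = 9.1e-08) and 0.93 (SE 0.04, adjusted p = 1.1e-06).

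Fibrillar collagens had the widest range of responses. COL1A1 (ENSG00000108821, minus strand of chromosome 17, 50183289 to 50201632), the alpha 1 chain of type I collagen, was at 1.79, 2.21 and 2.1 FPKM with scrambled siRNA, 13.7, 14.7 and 13.7 after siCyclin K#1 and 3.3, 3.18 and 3.1 after siCyclin K#2. The siCyclin K#1 libraries stood far above the rest, and the siCyclin K#2 libraries lay above all scrambled libraries. The log2 fold change was 2.73 (SE 0.08, adjusted p = 5.2e-08) after siCyclin K#1 and 0.63 (SE 0.08, adjusted p = 0.00033) after siCyclin K#2. With both siRNAs pooled it was 1.68 and did not pass the test (SE 0.59, adjusted p = 0.058). COL1A2, which encodes the other chain of type I collagen, had 4 reads in 1 siCyclin K#1 library and 0 in every other library.

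Type V collagen, which joins type I in fibrils, showed its chains moving unequally. COL5A2 (ENSG00000204262, minus strand of chromosome 2, 189031896 to 189179879) was at 10.8, 10.6 and 9.96 FPKM with scrambled siRNA, 52.1, 41.7 and 54.8 after siCyclin K#1 and 20.4, 15.8 and 19.9 after siCyclin K#2. COL5A1 (ENSG00000130635, plus strand of chromosome 9, 134641774 to 134844843) was at 4.09, 3.75 and 4.15 FPKM with scrambled siRNA, 7.03, 6.97 and 7.4 after siCyclin K#1 and 13.2, 12.6 and 13 after siCyclin K#2. The groups did not overlap for either gene, but siCyclin K#1 was the highest for COL5A2 and siCyclin K#2 for COL5A1. COL5A2 had log2 fold changes of 2.23 (SE 0.12, adjusted p = 1.2e-06) after siCyclin K#1 and 0.83 (0.12, 0.00075) after siCyclin K#2. COL5A1 had 0.82 (SE 0.05, adjusted p = 3.8e-06) after siCyclin K#1 and 1.67 (0.05, 2e-07) after siCyclin K#2. The ratio COL5A1/COL5A2 was 0.356 to 0.417 in scrambled libraries, 0.135 to 0.167 after siCyclin K#1 and 0.647 to 0.795 after siCyclin K#2. COL27A1, a fibrillar chain known from cartilage, ranged from 2.18 to 2.99 FPKM across the 9 libraries and was called in no comparison except after quantile normalization.

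The type VI chains COL6A1 and COL6A2, neighbours on the plus strand of chromosome 21, rose to a similar extent. COL6A1 (ENSG00000142156, 45981737 to 46005050) was at 11.9, 11.5 and 12.3 FPKM with scrambled siRNA, 20, 20 and 22.4 after siCyclin K#1 and 18, 16.7 and 18.2 after siCyclin K#2. COL6A2 (ENSG00000142173, 46098097 to 46132849) was at 7.5, 7.54 and 7.41, then 11.8, 11.6 and 13, then 11.7, 11.4 and 12.6 FPKM. All siCyclin K libraries were above all scrambled ones for both genes, and for COL6A2 the siRNAs overlapped. The log2 fold change was 0.80 (SE 0.06, adjusted p = 6.9e-06) and 0.56 (0.06, 9.6e-05) for COL6A1, and 0.69 (0.06, 1.5e-05) and 0.66 (0.06, 3.4e-05) for COL6A2, after siCyclin K#1 and siCyclin K#2 in that order. The ratio COL6A1/COL6A2 was 1.52 to 1.66 with scrambled siRNA, 1.69 to 1.72 after siCyclin K#1 and 1.45 to 1.54 after siCyclin K#2. COL6A3, the large chain that completes the microfibril, was far lower in A549 cells, at 0.0989 to 0.128 FPKM in scrambled libraries, 0.219 to 0.255 after siCyclin K#1 and 0.153 to 0.185 after siCyclin K#2. It rose after siCyclin K#1 (log2 fold change 0.67, SE 0.19, adjusted p = 0.02, but 0.056 to 0.059 without scrambled replicate 3, siCyclin K#1 replicate 2 or siCyclin K#1 replicate 3), and after siCyclin K#2 the log2 fold change was 0.35 (SE 0.19, adjusted p = 0.21).

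COL12A1 and COL18A1 changed little. COL12A1 (ENSG00000111799, minus strand of chromosome 6, 75084326 to 75206051), a collagen that sits on the surface of fibrils, was at 12.7, 12 and 12.7 FPKM with scrambled siRNA, 16.1, 17.2 and 17.3 after siCyclin K#1 and 12.2, 12.7 and 12.3 after siCyclin K#2. It rose after siCyclin K#1 (log2 fold change 0.43, SE 0.04, adjusted p = 6.4e-05), while after siCyclin K#2 the libraries overlapped the scrambled ones (-0.01, 95% interval -0.11 to 0.10, adjusted p = 0.93). COL18A1 (ENSG00000182871, plus strand of chromosome 21, 45405137 to 45513720), the basement membrane collagen that gives rise to endostatin, was at 10.4, 10.6 and 10.2, then 12, 10.7 and 10.7, then 12.9, 12.2 and 12.7 FPKM. It rose after siCyclin K#2 (log2 fold change 0.27, SE 0.06, adjusted p = 0.0045) and gave 0.10 after siCyclin K#1 (SE 0.06, adjusted p = 0.19). COL18A1 overlaps SLC19A1 on the opposite strand, which averaged 3.86 FPKM. COL15A1, its relative, was under 1 FPKM and rose by 0.62 after siCyclin K#1 and 0.61 after siCyclin K#2 on the log2 scale (SE 0.20 each, adjusted p = 0.033 and 0.046), with 0.241 to 0.349 FPKM in scrambled libraries and 0.377 to 0.584 in the others. Leaving out scrambled replicate 1 or 3, or siCyclin K#1 replicate 1 or 2, ended the first of these calls (adjusted p = 0.079 to 0.1), and leaving out any of these, siCyclin K#1 replicate 3 or siCyclin K#2 replicate 1 or 2 ended the second (0.052 to 0.14). COL16A1, a further fibril-associated chain, ranged from 0.507 to 0.748 FPKM over the 9 libraries and was called in no comparison of the main fit. With quantile normalization, limma called it lower after siCyclin K#1 than after siCyclin K#2 (-0.50, adjusted p = 0.023).

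Both tested transmembrane collagens were lower after siCyclin K#1, and they were the only collagen genes called lower against scrambled siRNA, apart from COL27A1 with quantile normalization and COL8A1 with quantile normalization, eBayes without trend or limma-voom. COL13A1 (ENSG00000197467, plus strand of chromosome 10, 69801867 to 69964275), found at cell adhesions and neuromuscular junctions, was at 1.03, 1.16 and 0.895 FPKM with scrambled siRNA, 0.546, 0.629 and 0.438 after siCyclin K#1 and 1.78, 2.52 and 1.78 after siCyclin K#2. The 3 groups did not overlap, after siCyclin K#1 lowest and siCyclin K#2 highest. It fell after siCyclin K#1 (log2 fold change -0.83, SE 0.18, adjusted p = 0.0048) and rose after siCyclin K#2 (0.90, SE 0.18, adjusted p = 0.0042), and these values rest on 171 to 218, 85 to 116 and 334 to 493 reads. COL17A1, a hemidesmosome component of skin, was low, at 0.12 to 0.198 FPKM in scrambled libraries, and fell to 0.0199 to 0.0378 after siCyclin K#1 (log2 fold change -0.98, SE 0.28, adjusted p = 0.018, 0.065 without scrambled replicate 1). After siCyclin K#2 it ranged from 0.0797 to 0.198 FPKM and did not pass the test (-0.16, adjusted p = 0.71).

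Several collagen genes that were at or near 0 in scrambled cells were detected in Cyclin K depleted cells. For these the reads behind the values are given, as recovered from FPKM, exon length and depth, and 3 reads per library were taken as the floor. COL5A3 (ENSG00000080573, minus strand of chromosome 19, 9959561 to 10010471), a further chain of type V collagen, had 0 reads in all 3 scrambled libraries, 136, 154 and 131 after siCyclin K#1 and 10, 25 and 12 after siCyclin K#2. Against the floor this was at least 47.5-fold higher after siCyclin K#1 and at least 5.23-fold higher after siCyclin K#2. The limma call for siCyclin K#2 (adjusted p = 0.033) was lost without any 1 library other than siCyclin K#2 replicate 1 (adjusted p = 0.05 to 0.1). COL11A2, a cartilage fibril chain, had 5, 4 and 6 reads with scrambled siRNA, 159, 182 and 114 after siCyclin K#1 and 47, 74 and 32 after siCyclin K#2. Both genes were low and the siRNAs did not overlap. COL11A2 had log2 fold changes of 2.68 (SE 0.27, adjusted p = 4.5e-05) after siCyclin K#1 and 1.40 (0.27, 0.0032) after siCyclin K#2. COL5A3 and COL11A2 passed the filter only through siCyclin K libraries, so their calls are a description and no support is drawn from them.

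COL4A4 and COL4A3, whose products belong to the type IV network of glomerulus and alveolus and which lie head to head on chromosome 2, were at low levels. COL4A4 had 5, 14 and 10 reads in scrambled libraries, 72, 78 and 81 after siCyclin K#1 and 34, 24 and 40 after siCyclin K#2, with no overlap. It rose after siCyclin K#1 (log2 fold change 1.38, SE 0.23, adjusted p = 0.0011), and after siCyclin K#2 the value was 0.63 (SE 0.23, adjusted p = 0.067). COL4A4, like COL4A3 and COL9A3 below, passed the filter only through siCyclin K libraries, so calls of these genes are a description only. COL4A3 had 13, 17 and 15, then 43, 28 and 34, then 21, 13 and 30 reads and was called in no comparison, except higher after siCyclin K#1 with eBayes without trend or limma-voom. COL9A3, a cartilage collagen, had 0 reads in every scrambled library, 17, 18 and 16 after siCyclin K#1, at least 5.77-fold above the floor, and 4, 8 and 2 after siCyclin K#2. TCFL5, which overlaps COL9A3 on the opposite strand, averaged 1.99 FPKM, so that strand cannot be told apart here either. COL8A1 (11 to 41 reads) and COL10A1 (2 to 30 reads), short-chain network collagens, were called in no comparison of the main fit, and COL10A1 overlaps NT5DC1 at 8.35 FPKM. COL8A1 was lower after siCyclin K#1 with the 3 alternatives named above. With quantile normalization, limma also called it lower after siCyclin K#1 than after siCyclin K#2 (-0.87, adjusted p = 0.029).

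**Figure D4:**
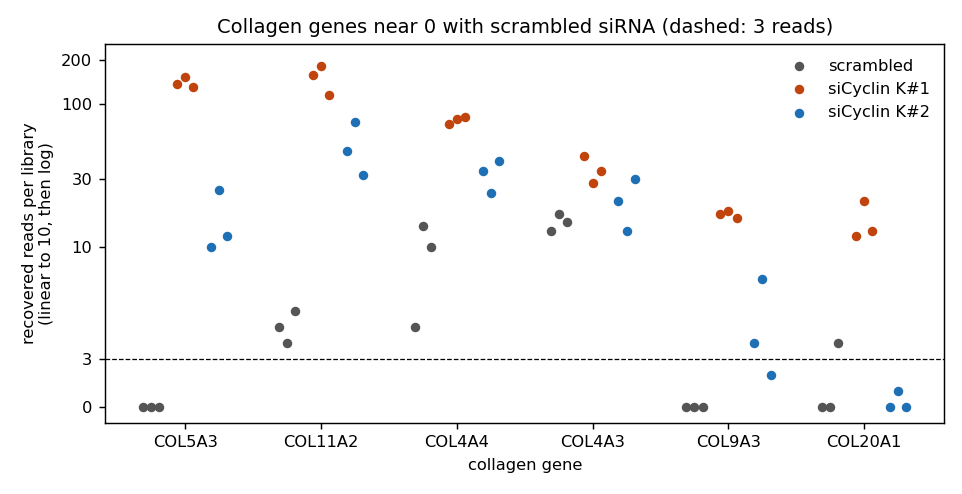
Recovered reads per library (1 point each; axis linear to 10 and logarithmic above) of 6 collagen genes that were near 0 with scrambled siRNA, with the floor of 3 reads dashed. COL5A3 has 0 reads in each scrambled library and 131 to 154 after siCyclin K#1, and COL20A1 has 12 to 21 after siCyclin K#1 and at most 4 elsewhere. The 6 were picked by name, all with more reads after siCyclin K#1. Other low genes, such as COL6A6 and COL24A1, are not drawn, and not all of them rose.

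The other 14 genes did not pass the filter, and none exceeded 0.115 FPKM in any library. They were the fibrillar COL1A2, COL2A1, COL3A1, COL11A1 and COL24A1, the network chain COL8A2, COL6A6 and COL28A1, the fibril-associated COL9A2, COL14A1, COL20A1, COL21A1 and COL22A1, and COL26A1. Reads could be recovered for 13 of them and were at most 13 in a scrambled library, 21 after siCyclin K#1 and 7 after siCyclin K#2. COL3A1, the partner of type I collagen in soft tissue, had 0 to 5 reads per library, and COL2A1, the cartilage fibril chain, 0 to 3. COL20A1 had 12, 21 and 13 reads after siCyclin K#1 and 0, 0 and 4 with scrambled siRNA. Without the filter, limma called COL20A1 higher after siCyclin K#1, against both scrambled siRNA and siCyclin K#2, and called none of the other 13 in any of the 4 comparisons.

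Summed over the 39 genes, collagen transcripts amounted to 214 ± 1.54 FPKM (SD, n = 3) with scrambled siRNA, 445 ± 15.4 after siCyclin K#1 and 324 ± 10.2 after siCyclin K#2. The libraries ranged from 213 to 216, 428 to 457 and 313 to 333, so the groups did not overlap. Type IV chains made up 59.3% ± 0.379 of the sum with scrambled siRNA, 56.5% ± 0.611 after siCyclin K#1 and 56.9% ± 0.503 after siCyclin K#2. Of the whole collagen sum, the share of COL4A2 went from 37.8% to 23.7% and 26.4%, and that of COL4A1 from 18% to 29% and 27.2%. Fibrillar chains took 9.09% ± 0.186, 16.7% ± 0.814 and 11.6% ± 0.473, the largest share being after siCyclin K#1, where COL5A2 alone held 9.75% to 12% of the sum. These shares are of RNA and say nothing of secreted protein.

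**Figure D5:**
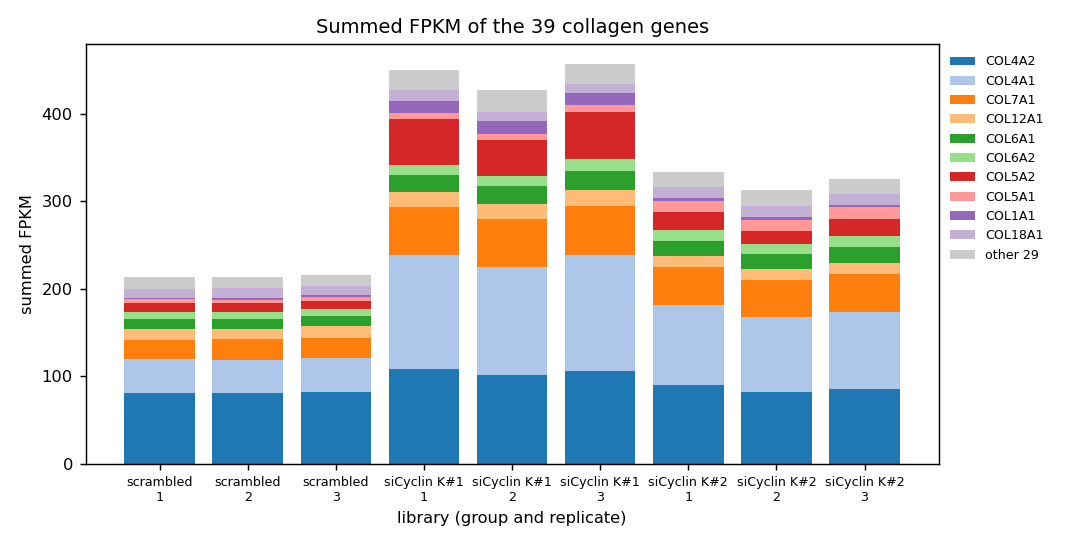
Summed FPKM of the 39 collagen genes in each of the 9 libraries, stacked by gene, with the 10 named genes in colour and the other 29 in grey. The scrambled libraries reach 213 to 216 FPKM, those of siCyclin K#1 428 to 457 and those of siCyclin K#2 313 to 333, with COL4A1 and COL5A2 widening most after siCyclin K#1.

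Each siRNA was also set against the other, since they target the same mRNA and left similar CCNK levels. In this direct test 12 of the 25 genes were on the side of siCyclin K#1 and 3 on that of siCyclin K#2. The background was 17.1% and 12.3% of all tested genes, and COL5A3, COL11A2 and COL4A4 among the 12 had entered only through siCyclin K libraries. Of the 14 genes with a mean of at least 1 FPKM, 9 and 3 were called, against 23.7% and 20.8% of all genes at that level. The median log2 difference was 0.35, against 0.08 over all tested genes. The differences, siCyclin K#1 minus siCyclin K#2, were widest for COL5A3 at 2.14 (SE 0.23, adjusted p = 0.00018), COL1A1 at 2.10 (0.08, 7.1e-07) and COL5A2 at 1.40 (0.12, 5.2e-05) on one side, and for COL13A1 at -1.73 (0.18, 0.00015) and COL5A1 at -0.85 (0.05, 9.2e-06) on the other. COL1A1, COL5A3 and COL13A1 passed a fold change over 3 with p under 0.01, against a background of 1.53%. COL4A1 differed by 0.55 and COL7A1 by 0.36. The calls of COL18A1 at -0.18 (adjusted p = 0.043) and COL4A4 at 0.76 (adjusted p = 0.037) were lost when single libraries were left out, for COL18A1 any but siCyclin K#1 replicate 1 (0.055 to 0.13) and for COL4A4 any but scrambled replicates 1 and 2 (0.051 to 0.11). That of COL6A1 at 0.24 (adjusted p = 0.015) was lost without siCyclin K#2 replicate 2 (0.055). For COL6A2 the difference was 0.03 (95% interval -0.10 to 0.16, adjusted p = 0.76) and for COL27A1 0.01 (-0.23 to 0.24, adjusted p = 0.97).

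Genes that act on collagen chains were read from lists of enzymes, chaperones, crosslinkers and receptors. Of 22 tested genes of processing and secretion, 9 were higher and 1 lower with both siRNAs together, 13 higher and 4 lower after siCyclin K#1, and 10 higher and 2 lower after siCyclin K#2. Over all tested genes these shares were 17.0% and 11.5%, 26.8% and 18.1%, and 19.8% and 15.2%, so that the 4 lower genes after siCyclin K#1, 18.2% of the list, were at the background. The median log2 fold change with both was 0.33, against 0.06 over all tested genes. P3H2, a prolyl 3-hydroxylase, went from 3 ± 0.191 FPKM (SD, n = 3) to 11.3 ± 0.329 and 6.2 ± 0.0931 (log2 fold change with both 1.46, adjusted p = 0.0018), and P4HA2, a catalytic subunit of prolyl 4-hydroxylase, from 4.68 ± 0.475 to 8.94 ± 0.331 and 11.3 ± 0.457 (1.09, adjusted p = 0.00014). FKBP14, a prolyl isomerase of the endoplasmic reticulum, rose from 7.19 ± 0.651 to 14.3 ± 0.718 and 11.1 ± 0.341 FPKM (0.81, adjusted p = 0.00093). PLOD2, the lysyl hydroxylase that acts on telopeptides, went the other way, from 165 ± 6.28 to 69.4 ± 1.07 and 125 ± 6.87 FPKM (-0.82, adjusted p = 0.029).

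Of 9 tested genes of extracellular maturation and crosslinking, 2 were higher and 0 lower with both siRNAs, 4 and 0 after siCyclin K#1, and 2 and 2 after siCyclin K#2. With both siRNAs 22.2% were thus higher, where 17.0% of all tested genes were, and after siCyclin K#2 22.2% were higher and 22.2% lower, against 19.8% and 15.2%, with a median of -0.01 against 0.01. These shares were near the background, and after siCyclin K#1 44.4% were higher against 26.8%. LOX, the lysyl oxidase that starts crosslinking, rose from 1.6 ± 0.131 FPKM to 3.82 ± 0.365 and 3.56 ± 0.74 (log2 fold change with both 1.15, adjusted p = 0.0002), and BMP1, the procollagen C-proteinase, from 2.64 ± 0.138 to 4.05 ± 0.117 and 3.2 ± 0.102 (0.44, adjusted p = 0.021). Of 6 tested receptors, 3 were higher and 1 lower with both, 4 and 1 after siCyclin K#1, and 3 and 0 after siCyclin K#2, against backgrounds of 17.0% and 11.5%, 26.8% and 18.1%, and 19.8% and 15.2%. ITGA10, a collagen-binding integrin subunit, rose from 0.754 ± 0.0633 to 7.78 ± 1.01 and 1.66 ± 0.178 FPKM (2.12, adjusted p = 0.027). MRC2, the endocytic receptor that takes up collagen fragments, rose from 7.3 ± 0.553 to 27.4 ± 0.623 and 20.6 ± 0.376 (1.69, adjusted p = 1.6e-05), and the shared subunit ITGB1 from 286 ± 17 to 392 ± 34.1 and 428 ± 30.5 (0.51, adjusted p = 0.001). ITGA2, the epithelial collagen-binding subunit, fell from 36.9 ± 0.201 to 18.2 ± 7.24 and 23.3 ± 6.81 FPKM (-0.91, adjusted p = 0.041). By single siRNA, limma called ITGA2 lower after siCyclin K#1 (-1.11, adjusted p = 0.022) but not after siCyclin K#2 (-0.70, adjusted p = 0.14).

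Collagen genes are long and made of many small exons that encode the repeats of the helix. The 25 tested genes spanned a median of 122 kb with 52 separate exon blocks, against 12.2 kb and 5 blocks over the 19826 tested genes with an annotated span. Over the 25 genes, the rank correlation of span with log2 fold change was -0.14 for siCyclin K#1 and 0.02 for siCyclin K#2, given as a description since the genes share the libraries and several share a locus.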

How the data were processed

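Total RNA of A549 cells in 3 groups of 3 libraries was sequenced as paired reads on a HiSeq X system, and the labels gave the groups and replicate numbers. FPKM values of every feature were computed by the authors with StringTie 1.3.3b, per the submitters' processing notes, and deposited library by library; the aligner, the annotation release and strandedness are not given in the sources used here. The methods and the labels name different culture media. Coordinates of 35 of the 39 members were those of GENCODE 29 (GRCh38). Rows of a reference gene were summed, 25125 features that name no reference gene were set aside, and 1344 features join several genes. Of 31080 genes, 21048 with at least 0.1 FPKM in at least 3 libraries entered limma 3.58.1 (trended eBayes, R 4.3.3, Benjamini-Hochberg) as log2(FPKM + 0.1), with 3 groups for single siRNAs and 2 groups for both; calls are at an adjusted p under 0.05. Adjusted p-values come from this fit, or from the same fit without a library where one is named as left out or with another setting where that setting is named. Only the fit of both siRNAs together was tested on simulated data. There 200 genes above 1 FPKM were changed by a log2 of 2, alike for both siRNAs. The fit recovered 191 of them and called 6 unchanged genes. Smaller changes, changes that differ between the siRNAs and changes of lower genes were not simulated. The value of 1 read was found from the steps of low FPKM values and exon lengths, which gave the depth of each library. Of the values under 50 reads 92.8% to 93.5% came out whole, and 23 members were resolved to whole reads within 0.1; COL4A5, COL27A1, COL7A1, COL17A1 and COL28A1 and genes with many reads were not. Precision at low values is limited by this counting error, and floors cover it only.

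Library values were given for members with a mean of at least 1 FPKM and an adjusted p under 0.05 in any of the 4 comparisons, other members by range or reads, and from each further list up to 3 rises and 3 falls with both siRNAs at a mean of at least 1 FPKM. The members and lists were chosen with earlier results of these data known. Alternatives were other pseudocounts, filters, scalings, thresholds and groupings, eBayes without trend, the highest row per gene, a replicate block and leaving out each library; limma-voom on recovered reads was added after the data were seen. The replicate numbers come from the labels, and whether they pair the libraries was checked.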

Additional observations from a re-analysis of the deposited data

Results flagged for a closer look

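The effects of the siRNAs differed from each other for 15 of the 25 tested collagen genes in the direct limma test at an adjusted p under 0.05. The log2 difference, siCyclin K#1 minus siCyclin K#2, was positive for 12 and negative for 3, where 17.1% and 12.3% of all tested genes were called. Among type IV chains it was 0.55 for COL4A1, 0.30 for COL4A2, 0.76 for COL4A4, 0.68 for COL4A5 and 0.63 for COL4A6. Among fibrillar chains it was 2.10 for COL1A1, 1.40 for COL5A2, 2.14 for COL5A3 and 1.28 for COL11A2. It was 0.36 for COL7A1, 0.24 for COL6A1 and 0.44 for COL12A1. It was negative for COL5A1 at -0.85, COL13A1 at -1.73 and COL18A1 at -0.18. COL5A3, COL11A2 and COL4A4 had entered only through siCyclin K libraries. The calls of COL18A1, COL4A4 and COL6A1 were lost without some single libraries, as given above. The 6 siCyclin K libraries of each of the 25 genes were also checked by Dixon's criterion for 1 library apart from the rest. This found 0, where chance gives about 1.25, but the search pools both siRNAs, which differ for many of these genes.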

How the results depend on the processing

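Of the 59 calls of single collagen genes over the 4 comparisons, 0 reversed under any alternative that gave them a value. Of 1164 recomputed values, 82 lost the call, most often COL18A1 between the siRNAs and COL5A3 with siCyclin K#2 (12 alternatives each). The cause was not tested unless the alternative itself shows it. Among counts of higher genes, stricter thresholds lowered both siRNAs together from 11 to 1 (fold over 3, p under 0.01) or 7 (adjusted p and fold over 2), siCyclin K#1 from 17 to 5 or 9, siCyclin K#2 from 14 to 1 or 3, and siCyclin K#1 over siCyclin K#2 from 12 to 2 or 4; among lower ones, siCyclin K#1 went from 2 to 0 under each and the direct comparison from 3 to 1. Testing only genes with a mean of at least 1 FPKM gave 11 higher and 1 lower with siCyclin K#1, since fewer genes were tested. Taking both siRNAs as the mean contrast of the 3-group fit gave 18 higher, a fit whose spread leaves out the difference between the siRNAs. Quantile normalization, which shifts the median of all genes by -0.12 for siCyclin K#1, gave 1 lower with both, 4 lower with siCyclin K#1, 1 lower with siCyclin K#2 and 5 lower between the siRNAs. Limma-voom on recovered reads, chosen after the data were seen, gave 6 lower between the siRNAs. Apart from the fold over 3 thresholds, whose background is given above, shares of all tested genes were not computed under these alternatives or without single libraries. The counts of this section are therefore a description only.

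Without each library in turn, the higher counts ranged from 7 to 13 for both siRNAs (7 without scrambled replicate 1 or replicate 3), 15 to 17 for siCyclin K#1, 12 to 13 for siCyclin K#2 and 10 to 12 between the siRNAs, and the lower counts from 0 to 0, 1 to 2 (1 without scrambled replicate 1), 0 to 0 and 2 to 3. Libraries of the same number showed no shared deviation (mean correlation -0.00585, -0.0711 to 0.0379 over 9 pairs and 11243 genes), and the replicate block gave 9 higher and 0 lower with both, 17 and 2, 13 and 0, and 11 and 3.

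Signs turned only for values that were never called. COL13A1 with both siRNAs (0.04) was -0.02 with median-ratio rescaling, -0.11 with quantile normalization and -0.20 to 0.26 without single libraries. After siCyclin K#2, COL8A1 was -0.01 with median-ratio rescaling and -0.09 to 0.12 without single libraries, COL12A1 -0.04 to 0.01 and COL17A1 -0.36 to 0.00. After siCyclin K#1, COL16A1 was -0.12 to 0.03. Between the siRNAs, COL15A1 was -0.19 with quantile normalization and -0.13 to 0.12 without single libraries, COL27A1 -0.01 with median-ratio rescaling, -0.08 with quantile normalization and -0.09 to 0.08, and COL6A2 -0.02 to 0.07.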
